A study of Homo sapiens with 18 samples.

Results

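The keratin genes of simple and stratified epithelium were followed across 6 ovarian cancer cell lines that form 3 pairs of a platinum-sensitive and a platinum-resistant line. The members were 10 keratin genes given by name, and 9 of them were found among the 12853 genes with RNA-seq values. These were KRT7, KRT8, KRT18, KRT19, KRT80, KRT81, KRT23, KRT5 and KRT10, and KRT17 was not analysed here. The sensitive lines were A2780, PEA1 and PEO1, the resistant lines were CP70, PEA2 and PEO4, and each line had 3 libraries of rRNA-depleted total RNA (18 libraries). All lines were grown in the same medium, RPMI-1640 with glutamine and fetal bovine serum, and the labels name no drug in the cultures. A2780 is labelled as an endometrial/ovarian cancer line, and CP70 is a resistant line derived from it in vitro. The PEA and PEO pairs are high-grade serous lines, each pair from the tumour cells of 1 patient. PEA1 dates from a time before any platinum was given and PEA2 from the resistant relapse, both as ascites cells. The PEO lines were both derived once platinum had been given, PEO1 while the disease still responded and PEO4 when it no longer did. Each group is therefore 1 cell line, and nothing in the labels says whether its 3 libraries came from separate cultures, so the tests measure the spread between libraries of a line, which may be technical.

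Keratins are the intermediate filament proteins of epithelial cells. Each filament is built from pairs of a type I and a type II keratin, and neither type forms filaments alone. KRT8 and KRT18 are the partners of simple epithelium, the first to appear in development. KRT7 and KRT19 join them in ductal and glandular epithelium, including that of the ovary and the fallopian tube, and KRT7 is a routine marker of ovarian carcinoma. KRT5 belongs to the basal layer of stratified epithelium and KRT10 to its upper layers. KRT81 is a keratin of hair, KRT80 is found in epithelia as they differentiate, and KRT23 is a type I keratin of various epithelia. The members of type II analysed here were KRT8, KRT7, KRT80, KRT81 and KRT5, which lie together on chromosome 12, and those of type I were KRT18 on chromosome 12 and KRT19, KRT23 and KRT10 on chromosome 17.

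Reads of KRT8 and KRT18 can be shared with processed pseudogenes, copies of a spliced messenger RNA that were inserted elsewhere in the genome. The table of values held 5 pseudogenes of KRT8 and 7 of KRT18. Over the part that aligns, their sequence was 86.3% to 97.1% identical to the KRT8 transcript and 89.3% to 95.2% identical to the KRT18 transcript (GRCh37 with its GENCODE annotation). Of all stretches of 50 bases in the KRT8 transcript, 33.1% occur without a mismatch in at least 1 of its 5 pseudogenes, and 24.2% of those of KRT18 occur in at least 1 of its 7. The windows below show how near some of these copies are. They hold the splice junction of KRT18 closest to the middle of its coding sequence, with 30 bases from either side, and the same window in 3 of its pseudogenes where it aligned with few differences. Capitals mark the bases that differ from the parent gene.
KRT18: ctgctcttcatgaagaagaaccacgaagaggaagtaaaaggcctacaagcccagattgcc
KRT18P29: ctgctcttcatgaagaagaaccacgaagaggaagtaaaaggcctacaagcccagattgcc
KRT18P17: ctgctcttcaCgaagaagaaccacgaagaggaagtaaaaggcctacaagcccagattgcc
KRT18P15: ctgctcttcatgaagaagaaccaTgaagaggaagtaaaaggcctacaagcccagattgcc
The KRT18 window joins chr12:53344661-53344690 (the end of exon 3) to chr12:53345265-53345294 (the start of exon 4) on the plus strand. KRT18P29 carries it without a difference as 1 unbroken piece, at chr2:182826521-182826580 on the minus strand, where there is no intron. KRT18P17 (chr3:12829486-12829545, minus strand) and KRT18P15 (chr3:32301057-32301116, plus strand) differ from it by 1 base each. The best ungapped windows of KRT18P38, KRT18P65 and KRT18P11, not printed, differ by 3, 5 and 7 bases.

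The deposited values are log2 CPM (log2 of the read count, with 0.5 reads added, scaled by library size), from which whole reads were recovered. A library held between 1344098 and 7067336 reads on the listed genes. The depth differed between lines, and the lowest depths were those of PEA1. A gene was taken to be at the floor of a line when all 3 libraries held at most 3 reads, which is between 0.452 and 2.18 CPM, and intervals and floors given from reads cover counting error only. The labelled tissue was checked on 10 markers of serous ovarian carcinoma. Their summed level was 308 to 408 CPM in PEA1, 1744 to 2029 in PEA2, 3344 to 4585 in PEO1 and 3439 to 5225 in PEO4, but 2.68 to 4.64 in A2780 and 16.1 to 20.8 in CP70, where 7 of the 10 were at the floor. PAX8 had 0 or 1 reads and WT1 and CDH1 had 0 reads in every library of A2780 and CP70. CDH1, CLDN3 and CLDN4 were also near 0 in PEA1 (0 to 4 reads).

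KRT8 and KRT18, the simple epithelial pair, were the only members besides KRT10 to be above the floor in more than 4 of the 6 lines. KRT8 was at 0, 2 and 1 reads in the 3 A2780 libraries and at 82, 58 and 42 in those of CP70. Its log2 CPM was 6.77, 6.06 and 6.65 in PEA1, 9.27, 9.40 and 9.54 in PEA2, 9.79, 9.87 and 9.84 in PEO1, and 9.53, 9.33 and 9.64 in PEO4. The libraries of CP70, PEA1 and the other 3 lines formed separate steps, and the lines at the top lay close together. In the order of levels, PEO4 did not differ from PEO1 (FDR = 0.504) or from PEA2 (FDR = 0.824) beyond the spread between libraries. CP70 exceeded A2780 by a log2FC of 5.03 ± 0.37 (SE, FDR = 6.72e-10), and PEA2 exceeded PEA1 by 2.91 ± 0.37 (FDR = 1.04e-06), which is 7.51-fold. As A2780 held 3 reads in all, the first value depends on the reads added before the log was taken. The ratio of summed reads, scaled for library size, was 41.6, with a 95% exact interval of 14.0 to 204, and with the pseudogene reads added the log2FC was 2.52. Most of the pseudogene reads added in A2780 lay on KRT8P12 and KRT8P33, which lie within the spans of other genes. These are bulk libraries, in which fewer cells of a type and less RNA per cell cannot be told apart.

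KRT18 moved with KRT8 in direction in both of those pairs. It had 3 reads in each A2780 library and 407, 257 and 242 in CP70. In log2 CPM it was 6.06, 5.93 and 5.99 in CP70, 6.20, 5.99 and 6.10 in PEA1, 8.73, 8.50 and 8.55 in PEA2, 8.55, 8.56 and 8.60 in PEO1, and 8.18, 8.04 and 8.37 in PEO4. The 5 lines above the floor therefore sat at a lower and an upper level. CP70 and PEA1 did not differ beyond their spread (FDR = 0.543, with 70.4% of all genes below 0.05 in that comparison), nor did PEA2 and PEO1 (FDR = 0.884, against 66.9% of all genes), whereas PEO4 lay below PEA2 (FDR = 0.0250, against 68.1%). KRT18 rose by a log2FC of 5.84 ± 0.15 in CP70 (FDR = 5.34e-17; read ratio 69.0, interval 36.2 to 151) and by 2.49 ± 0.15 in PEA2 (FDR = 2.81e-11, 5.63-fold). In the PEO pair the libraries of PEO4 all lay below those of PEO1 for KRT8 and for KRT18, but by little. The log2FC was -0.33 ± 0.37 for KRT8 and -0.37 ± 0.15 for KRT18 (FDR = 0.0548), and the KRT18 difference passed an FDR of 0.05 under 6 of 15 other ways of processing.

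KRT7 and KRT19, the keratins of ductal and glandular epithelium, were at the floor in A2780, CP70 and PEA1 and high in the other lines. KRT7 had at most 3 reads in each of those 9 libraries. Its log2 CPM was 10.04, 10.14 and 9.98 in PEA2, 10.97, 10.97 and 10.84 in PEO1, and 8.55, 8.24 and 8.68 in PEO4. PEA2 and PEO1 did not differ beyond the spread (FDR = 0.106), and PEO4 was below PEA2 (FDR = 0.00620). KRT7 rose in PEA2 (log2FC = 9.23 ± 0.47, FDR = 2.29e-12), where 7 reads in all in PEA1 stood against 8085, a ratio of 693 (interval 336 to 1723). It fell in PEO4 (log2FC = -2.44 ± 0.47, FDR = 0.000291), a 5.42-fold difference, and the libraries of PEO1 and PEO4 did not overlap. The span of KRT7 overlaps that of KRT86 on the same strand.

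KRT19, the shortest keratin and a type I partner without a tail domain, also went from the floor in PEA1 to a high level in PEA2. PEA1 held 1, 1 and 3 reads and PEA2 held 1040, 2129 and 1275, a log2FC of 8.78 ± 0.45 (FDR = 3.07e-12) and a read ratio of 533 (interval 228 to 1642). Its log2 CPM was 9.12, 9.26 and 9.19 in PEA2, 10.15, 10.09 and 10.08 in PEO1, and 10.44, 10.53 and 10.60 in PEO4. KRT19 was thus the only member with its highest mean in PEO4, although PEO4 against PEO1 did not pass the test (log2FC = 0.42 ± 0.45, FDR = 0.501), and nor did PEO1 against PEA2 (FDR = 0.0813).

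**Figure D1:**
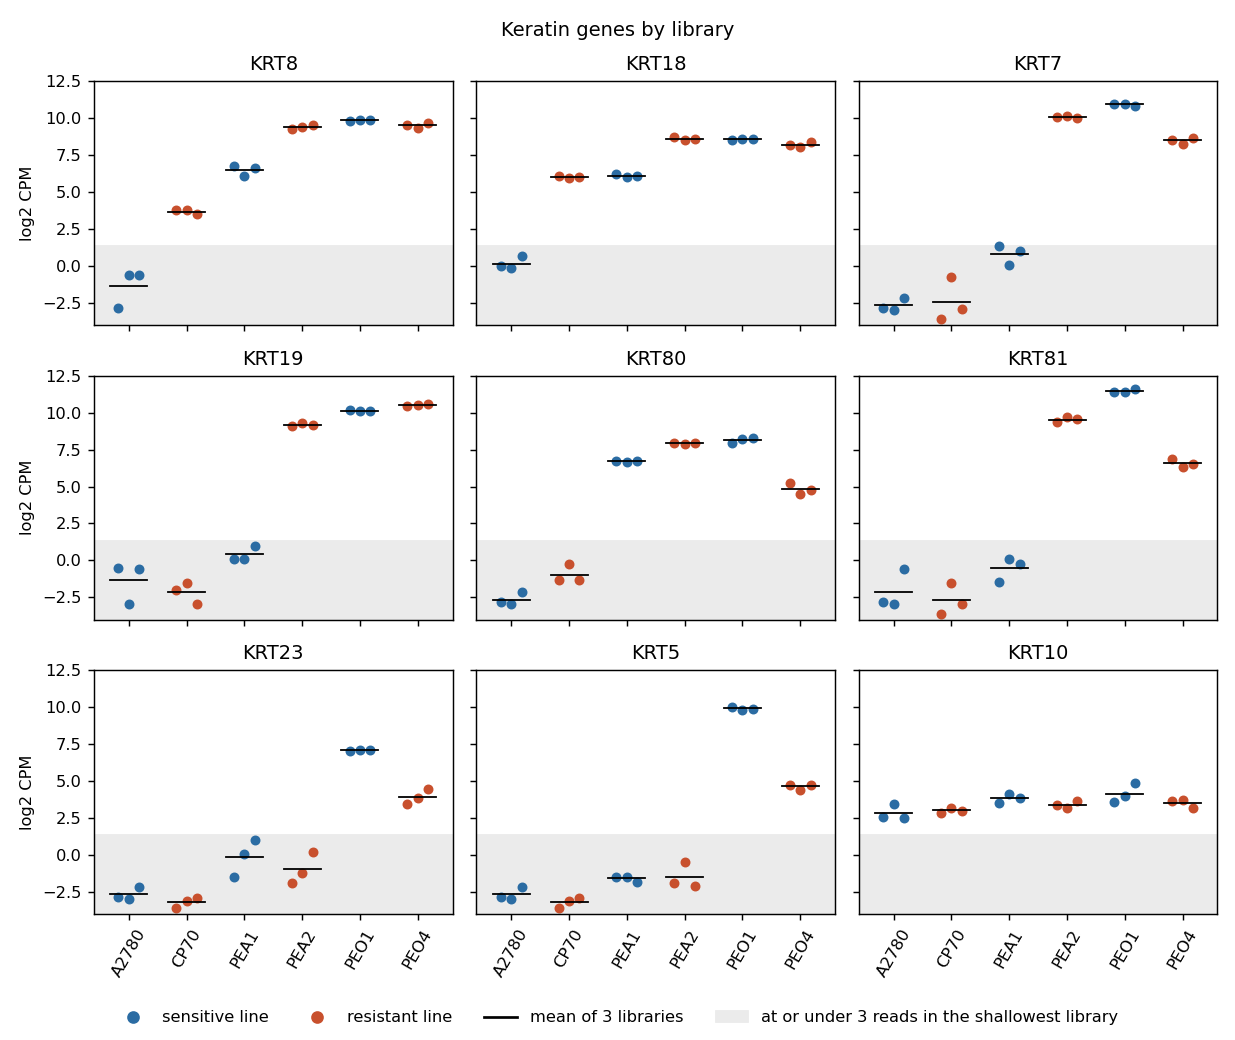
The log2 CPM of the 9 keratin genes (vertical axis) is plotted for each of the 3 libraries of the 6 lines (horizontal axis), with sensitive lines in blue, resistant lines in red and a bar at the mean. The grey band covers values at or under 3 reads in the shallowest library: KRT7, KRT19 and KRT81 lie in it in A2780, CP70 and PEA1 and far above it in PEA2, PEO1 and PEO4, whereas KRT10 lies between 2.48 and 4.87 in all libraries.

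KRT81, a hair keratin of type II, reached the highest level per transcript length of any member, in PEO1. Its log2 CPM was 11.37, 11.41 and 11.59 in PEO1, 9.33, 9.67 and 9.54 in PEA2 and 6.84, 6.34 and 6.54 in PEO4, and it had 0 or 1 reads in each library of A2780, CP70 and PEA1. No library of these 3 high lines overlapped with another line. PEO1 exceeded PEA2 (FDR = 0.00354) and PEA2 exceeded PEO4 (FDR = 7.19e-05). Within pairs KRT81 rose in PEA2 by a log2FC of 10.04 ± 0.54 (FDR = 4.80e-12; 2 reads in PEA1 against 5675, a read ratio of 1701, interval 471 to 14053) and fell in PEO4 by 4.88 on the log2 scale (SE 0.54, FDR = 4.14e-07), 29.4-fold. Its transcript is 97.1% identical to that of the neighbouring hair keratin KRT86 over 1304 aligned bases, and 38.4% of its 50-base stretches occur there too, so reads may be split between the genes. KRT81 lies at chr12:52679697-52685318 on the minus strand within the span of KRT86 on the plus strand. The libraries were prepared to keep the strand, but whether the counting used it is not given in the sources used here.

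KRT80, a type II keratin of differentiating epithelium, was above the floor in 4 lines, PEA1 among them. It was at 6.69, 6.66 and 6.73 log2 CPM in PEA1, 7.97, 7.86 and 7.91 in PEA2, 7.92, 8.20 and 8.27 in PEO1 and 5.23, 4.47 and 4.80 in PEO4. In the PEA pair it passed the FDR alone (log2FC = 1.22 ± 0.27, FDR = 0.000716), a smaller difference than the limit of 2 used for calls. In the PEO pair it fell by 3.30 on the log2 scale (SE 0.27, FDR = 9.83e-09), 9.84-fold. A2780 had 0 reads and CP70 had 2, 3 and 1, so both lines were at the floor and no fold is given.

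KRT5 and KRT23 were detected above the floor only in the PEO lines among the 6 lines. KRT5, the basal keratin of stratified epithelium, had 3111, 2536 and 6313 reads in PEO1 (log2 CPM 9.99, 9.83 and 9.89) and 77, 63 and 65 in PEO4 (4.75, 4.41 and 4.73). The other 12 libraries held 0 reads, apart from 1 PEA2 library with 2. Its difference in the PEO pair was the largest of the members (log2FC = -5.28 ± 0.41, FDR = 4.29e-09), 38.7-fold. KRT23 had 404, 390 and 922 reads in PEO1 and 31, 42 and 53 in PEO4, and the log2FC was -3.19 ± 0.56 (FDR = 0.000120), 9.14-fold.

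KRT10, the type I keratin of upper epidermal layers, was the only member above the floor in all 6 lines and the only one not called in any pair. Its reads ranged from 12 to 194 per library and its line means from 2.84 log2 CPM in A2780 to 4.15 in PEO1. The log2FC was 0.18 ± 0.32 in the A2780 pair (FDR = 0.692), -0.43 ± 0.32 in the PEA pair (FDR = 0.254) and -0.64 ± 0.32 in the PEO pair (FDR = 0.121), and the libraries of the lines overlapped in each pair. One PEO1 library held 194 KRT10 reads (4.87 log2 CPM), while the other 2 held 36 and 44 (3.57 and 3.99). KRT10 shares its locus with the antisense gene KRT10-AS1, whose reads cannot be told apart from its own without strand.

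Counted over the 9 members, calls (|log2FC| above 2 and FDR below 0.05) went one way in each pair. In the A2780 pair 2 of 9 rose in CP70 (KRT8 and KRT18) and 0 fell, where 5.66% of all 12853 genes rose and 3.4% fell. There 6 of the 9 were at the floor in both lines, so 3 could be compared. In the PEA pair 5 of 9 rose in PEA2 (KRT81, KRT7, KRT19, KRT8 and KRT18) and 0 fell, against 7.93% and 6.15% of all genes, and KRT5 and KRT23 were at the floor in both lines. In the PEO pair 5 of 9 fell in PEO4 (KRT5, KRT81, KRT80, KRT23 and KRT7) and 0 rose, against 3.37% and 2.86% of all genes. By the FDR alone the counts were 3, 6 and 5, where 39.9%, 61.9% and 41.5% of all genes passed, and 1 of the 3 in the A2780 pair was KRT80 with its 0 to 3 reads per library. The median log2FC over the 9 rows was 0.18, 2.49 and -2.44 in the 3 pairs, and over all genes it was -0.02, 0.01 and -0.02. The counts with the log2FC limit (2, 5 and 5) were the same under every alternative of normalization, filter and replicate tried, whereas those by the FDR alone ranged from 3 to 4, 6 to 7 and 5 to 9.

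**Figure D2:**
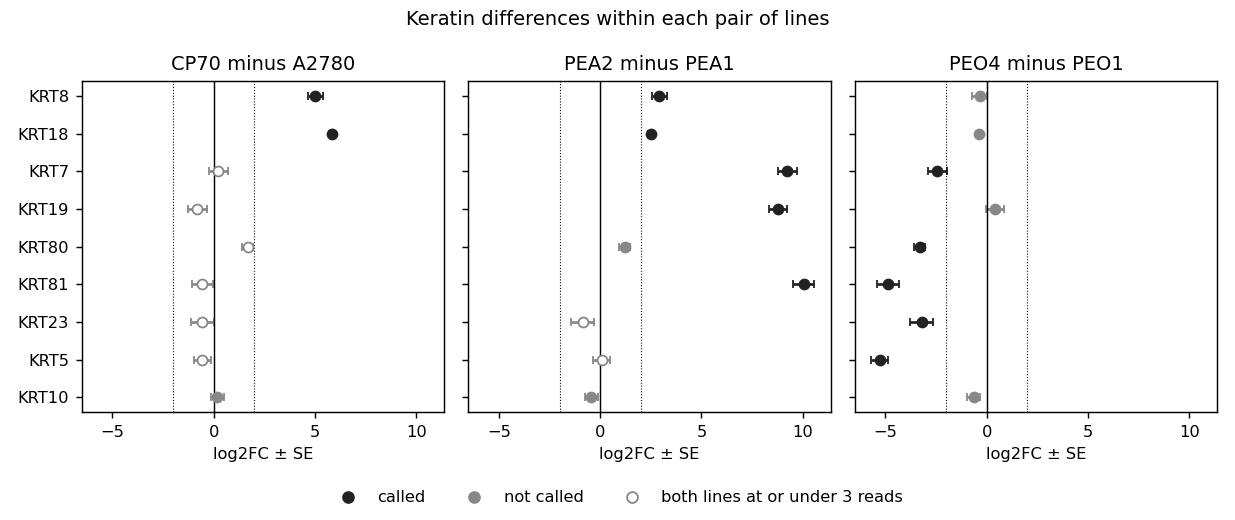
The log2FC of each keratin gene (horizontal axis, resistant minus sensitive line) is plotted with its standard error for the 3 pairs. Black points were called, grey points were not, open points had at most 3 reads in every library of both lines, and dotted lines mark the limits at 2 and -2: the called genes lie to the right in the A2780 and PEA pairs and to the left in the PEO pair.

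Whether a keratin differed between pairs in its response was tested on the difference of the log2FC values. KRT18 rose more in the A2780 pair than in the PEA pair (difference, PEA minus A2780, of -3.35 ± 0.21, FDR = 8.87e-11, where 57.5% of all genes passed an FDR of 0.05). For KRT8 the order of these pairs depended on whether pseudogene reads were added. In A2780 most of those reads lay on KRT8P12 and KRT8P33, within the spans of KPNA4 and CEP120, whose own reads may be counted there. The difference was -2.12 ± 0.52 (FDR = 0.00172) for KRT8 alone and 0.41 ± 0.24 (FDR = 0.145) with the pseudogene reads added, while that of KRT18 was then -2.34 ± 0.20 (FDR = 5.85e-09). Against the PEO pair, the differences (PEO minus A2780) were -5.36 ± 0.52 for KRT8 and -6.21 ± 0.21 for KRT18 (47.5% of all genes passed). The KRT8 value rests on A2780 libraries with 0 to 2 reads, and with the pseudogene reads added it was -2.87 ± 0.24. Between the PEO and PEA pairs, 6 of the 7 members above the floor in both pairs had a lower log2FC in the PEO pair (KRT10 did not pass), from -2.86 ± 0.21 for KRT18 to -14.92 ± 0.76 for KRT81, where 58.7% of all genes passed. KRT7 and KRT81 were called in opposite directions in these pairs, and KRT80 was called only in the PEO pair.

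Over the 3 pairs together, with the pair and the status as terms, 24.1% of all genes passed an FDR of 0.05. KRT8 (log2FC = 2.53 ± 0.58, FDR = 0.00526) and KRT18 (2.65 ± 0.62, FDR = 0.00604) were higher, and KRT5 (-1.92 ± 0.63, FDR = 0.0367) and KRT23 (-1.53 ± 0.46, FDR = 0.0229) lower, in resistant lines. That model takes the 18 libraries as independent. With the 3 pair differences as the replicates, the same 4 genes had an FDR of 0.953, and limma called 0 of 12853 genes (88 had an unadjusted p under 0.05). The means hide unlike pairs, as KRT8 and KRT18 had small negative values in the PEO pair and KRT5 and KRT23 were above the floor in that pair alone.

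To compare genes with each other, reads were scaled by the length of 1 transcript per gene (CPM per kb). The 9 members together reached 4.63 ± 1.12 (SD, n = 3) CPM per kb in A2780, 56.3 ± 1.73 in CP70, 135 ± 15.6 in PEA1, 2175 ± 81.1 in PEA2, 4799 ± 63.1 in PEO1 and 1978 ± 134 in PEO4. As a share of the reads on the 12853 listed genes they came to between 0.819% and 0.851% in PEO1 libraries and to at most 0.00136% in those of A2780. The rank of the lines by total keratin did not follow resistance, as the most and the least were both sensitive lines.

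The makeup of the keratin pool changed along with its size. In A2780 the few reads were mostly KRT10 (72.7% ± 13.5, SD, n = 3, of the length-scaled sum). In CP70, KRT18 made up 80.1% ± 2.45 and KRT8 12.7% ± 1.30. PEA1 had KRT8 (37.6% ± 5.31), KRT18 (35.9% ± 2.06) and KRT80 (19.8% ± 2.01), which is a simple epithelial pair with one further type II keratin. In PEA2 the pool was spread over KRT7 (30.02% ± 1.33), KRT19 (19.3% ± 0.241), KRT81 (17.5% ± 1.45), KRT8 (17.5% ± 1.45) and KRT18 (12.6% ± 1.55). PEO1 was led by KRT81 (30.3% ± 2.12) and KRT7 (25.0% ± 1.54), with KRT5 at 8.92% ± 0.545. PEO4 was led by KRT19 alone (53.6% ± 3.01), and KRT81 and KRT5 were down to 2.52% ± 0.458 and 0.557% ± 0.0554.

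Since type I and type II proteins pair, the ratio of their summed levels was also taken. Type II over type I was 0.151 ± 0.0232 (SD, n = 3) in CP70, 1.41 ± 0.191 in PEA1, 2.11 ± 0.126 in PEA2, 3.24 ± 0.0820 in PEO1 and 0.546 ± 0.0623 in PEO4. The libraries of the lines did not overlap in this ratio, and it turned from an excess of type II in PEO1 to an excess of type I in PEO4. Within the simple epithelial pair the ratio of KRT8 to KRT18 was 0.159 ± 0.0207 in CP70, 1.05 ± 0.196 in PEA1, 1.40 ± 0.219 in PEA2, 1.91 ± 0.0512 in PEO1 and 1.96 ± 0.0654 in PEO4. The PEO lines overlapped in this ratio, as did the PEA lines (0.828 to 1.18 in PEA1 and 1.15 to 1.57 in PEA2), and every CP70 library had less KRT8 per KRT18 than any library of the 4 lines above it. The ratios hold for the 9 listed members and without the pseudogene reads. The spans of KRT8 and KRT18 overlap on opposite strands, so counting without strand could affect the reads of both.

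**Figure D3:**
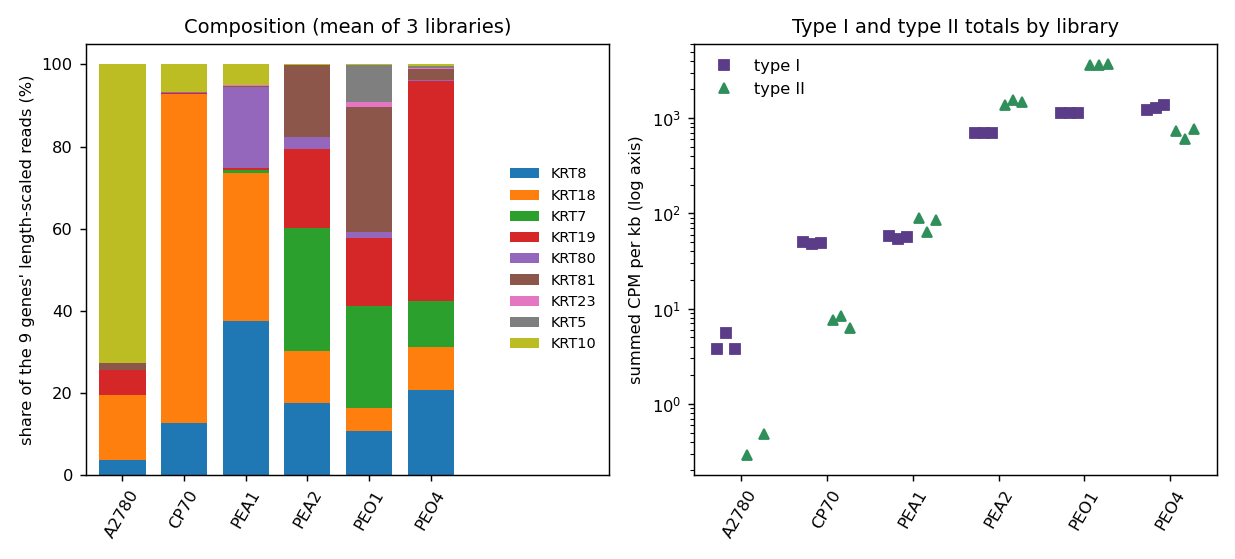
On the left, stacked bars give the share of each keratin gene in the length-scaled reads of the 9 members (percent, mean of 3 libraries per line). On the right, squares and triangles give the summed type I and type II level of each library in CPM per kb on a log axis, with 1 A2780 library left out for type II because it held 0 reads: type I lies above type II in CP70 and PEO4, and below it in PEA1, PEA2 and PEO1.

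The pseudogenes of KRT8 and KRT18 held reads in every line, with 4 to 15 reads per library for KRT8 and 4 to 6 for KRT18 in A2780. Of the reads of KRT8 and its 5 pseudogenes, the pseudogenes held 16.2% to 17.9% in PEO4, 17.7% to 18.5% in PEO1, 18.3% to 28.6% in PEA2, 18.3% to 32.1% in PEA1 and 35.9% to 41.7% in CP70. For KRT18 and its 7 pseudogenes the share was 34.0% to 34.6% in PEO4, 26.7% to 35.4% in PEO1, 24.8% to 41.8% in PEA2, 15.8% to 29.9% in PEA1 and 23.7% to 30.3% in CP70. The pseudogene rows were called only in the direction of their parent genes. In the A2780 pair 6 of 7 KRT18 pseudogenes and 1 of 5 KRT8 pseudogenes were called higher in CP70, in the PEA pair 5 of 7 and 4 of 5 were called higher in PEA2, and in the PEO pair 0 of the 12 were called. Their median log2FC was 4.22 and 1.24, 3.40 and 3.07, and -0.26 and -0.47 in these pairs. Over all genes 5.66% were called higher in CP70, 7.93% in PEA2 and 2.86% in PEO4, where 3.37% were lower. At these shares the 1 of 5 in CP70 and the 0 of 12 in PEO4 are not read as results about the pseudogenes.

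Single pseudogenes changed strongly between libraries of 1 line, unlike their parents. KRT18P29 held 1, 149 and 2 reads in the 3 PEA2 libraries, where KRT18 held 796, 1257 and 821. KRT8P10 held 3, 100 and 8, KRT18P17 held 6, 234 and 129, and KRT18P38 held 48, 0 and 25. In the PEO4 libraries KRT18P29 (81, 82 and 93 reads), KRT18P17 (106, 110 and 116) and KRT8P10 (37, 37 and 46) were more even. KRT18P38 was less so, with 54, 32 and 22. In A2780 most of the few KRT8-like reads lay on KRT8P12 (7, 7 and 3 reads) and KRT8P33 (6, 7 and 1), which lie within the spans of KPNA4 (opposite strand) and CEP120 (same strand), so reads of those genes may be counted there. Of the few KRT18 pseudogene reads in A2780, KRT18P15 held 3, 4 and 3. It lies within the span of CMTM8 (same strand), whose reads may be counted there too. With the pseudogene reads added to the parent, KRT18 rose by a log2FC of 5.08 in CP70 and 2.74 in PEA2, and KRT8 by 2.93 in PEA2, and the calls of both genes were kept in the A2780 and PEA pairs.

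**Figure D4:**
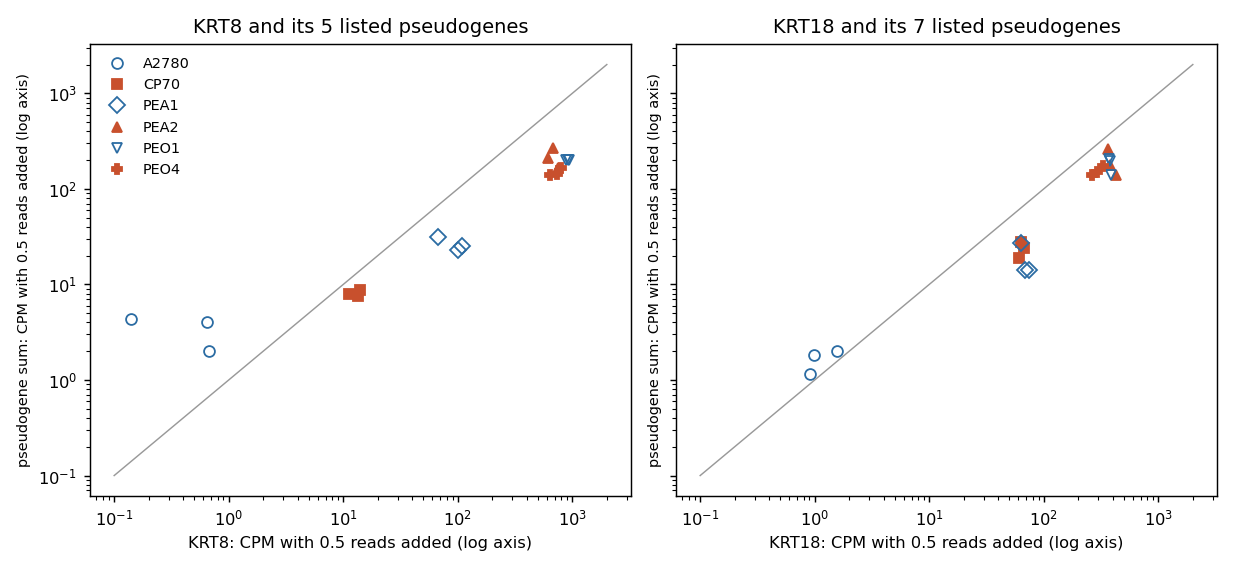
The summed level of the listed pseudogenes (vertical axis) is plotted against the level of KRT8 (left) or KRT18 (right), both as CPM with 0.5 reads added on log axes, with 1 point per library and a grey line where both are equal. Outside A2780 every point lies below the line, and the pseudogene sum rises with the parent from CP70 and PEA1 to PEA2, PEO1 and PEO4.

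Another 6 keratin rows were listed outside the 10 named genes. Of these 3 were called higher in PEA2 and 3 lower in PEO4, against 7.93% and 3.37% of all genes. In the A2780 pair all 6 were at the floor in both lines. In PEA2, KRT86 (a hair keratin, 1 read in PEA1 against 82, read ratio 49.2, interval 8.58 to 1966), KRT121P (a hair keratin pseudogene, log2FC = 4.32 ± 0.63) and KRT15 (a type I keratin of basal cells, 2 reads in PEA1 against 37, read ratio 11.1, interval 2.86 to 95.01) rose. KRT121P had 0, 0 and 4 reads in PEA1 (read ratio 15.7, interval 5.97 to 58.8). In PEO4, KRT6C (a keratin of stressed and hyperproliferative epithelium, -4.76 ± 0.61), KRT86 (-4.68 ± 0.46) and KRT121P (-3.53 ± 0.63) fell, and 0 of the 6 were called higher. KRT6C was at the floor in PEO4, with 2, 2 and 0 reads against 39, 47 and 88 in PEO1. KRT4, a type II keratin of the oral and oesophageal lining, had 470, 407 and 965 reads in PEO1 and 1167, 1072 and 966 in PEO4, and it passed the FDR alone (log2FC = 1.37 ± 0.40, FDR = 0.00885). KRT6A and KRT6C are 95.4% identical over the aligned part, so their reads may be split. KRT86 and KRT121P are 97.1% and 93.2% identical to KRT81 over the aligned part, so some of their reads may come from KRT81. In PEA2 they held 82 and 105 reads, where KRT81 held 5675. KRT121P also overlaps KRT7 and KRT86 on the opposite strand. For KRT121P, 1 PEO1 library held 454 reads against 82 and 90 in the others.

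Keratin filaments are anchored at cell junctions, and 9 of 13 desmosome genes were listed. In CP70 5 of the 9 rose and 0 fell, against 5.66% and 3.4% of all genes. DSP, the desmoplakin that ties keratin to the junction, had 0 or 1 reads in A2780 and 151 to 227 in CP70 (log2FC = 7.41 ± 0.37, read ratio 376, interval 67.2 to 14871), and PERP (5.38 ± 0.21), the desmosomal cadherin DSG2 (4.48 ± 0.25) and PKP3 (3.03 ± 0.31) rose with it. In PEA2 5 rose and 1 fell, against 7.93% and 6.15% of all genes. PKP3 (5.62 ± 0.31), JUP, the junctional plakoglobin (3.36 ± 0.15), and DSP (3.31 ± 0.37) were higher, and the cadherin DSC3 was lower (-3.87 ± 0.59). In PEO4 1 fell (PKP1, 62 to 144 reads in PEO1 and 3 to 9 in PEO4, log2FC = -3.29 ± 0.47) and 0 rose. Most desmosome genes were thus not called there, where 3.37% of all genes fell and 2.86% rose. Among 8 of 9 listed hemidesmosome genes and plakin linkers, 1 rose in CP70 (ITGB4, 2.04 ± 0.40) and 2 rose in PEA2 (PPL, a plakin that binds keratin, 4.41 ± 0.30, and ITGB4, 2.05 ± 0.40), with 0 called in PEO4. The rise of ITGB4 in CP70 rests on 0 to 2 reads in A2780 and 5 to 11 in CP70. Over all genes 5.66% rose in CP70 and 7.93% in PEA2, so a count of 1 or 2 among 8 is not read as a result about this list. The list medians were 2.18, 2.13 and 0.11 for desmosomes and 0.40, 0.79 and 0.18 for hemidesmosomes and linkers in the A2780, PEA and PEO pairs.

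Of 12 genes that regulate keratin filaments, 1 rose and 2 fell in CP70, 4 rose in PEA2 and 0 were called in PEO4 (medians 0.12, 1.09 and -0.44). Over all genes 5.66% rose and 3.4% fell in CP70, 7.93% rose in PEA2, and 2.86% rose and 3.37% fell in PEO4. At those shares the 1 that rose in CP70 and the 0 in PEO4 are not read as results about this list. FAM83H, which recruits a kinase to keratin filaments, rose in CP70 (3.76 ± 0.20) and in PEA2 (2.35 ± 0.20). EPPK1, the keratin-binding epiplakin, fell in CP70 (-3.65 ± 0.39) and rose in PEA2 (5.96 ± 0.39). It had 16 to 25 reads in A2780, 1 to 3 in CP70, 0 or 1 in PEA1 and 48 to 107 in PEA2. SFN, the 14-3-3 protein of epithelium, did the same (-2.34 ± 0.45 and 3.79 ± 0.45). Its fall rests on 3 to 8 reads in A2780 and 0 to 3 in CP70. Of the other intermediate filament genes 8 of 14 were listed, 3 of them lamins of the nucleus. In this list 2 rose and 1 fell in CP70, 2 fell in PEA2 and 1 rose in PEO4, against 5.66%, 3.4%, 6.15% and 2.86% of all genes, and such counts are not read as results about the list. In CP70 the neuronal filament genes INA (8.05 ± 0.66) and NEFH (2.73 ± 0.39) rose and NES, the nestin of progenitor cells, fell (-3.24 ± 0.21). In PEA2 VIM, the vimentin of mesenchymal cells, fell (-4.47 ± 0.13), from 3166 to 4538 reads in PEA1 to 220 to 402, as did SYNM (-2.68 ± 0.26). In PEO4 NES rose (3.21 ± 0.21). The medians of this list were 0.18, -0.43 and 0.25.

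Transcription and splicing factors of epithelium (12 of 16 listed) were called higher for 3 genes in CP70, 7 in PEA2 and 0 in PEO4, where 2 were lower (medians 0.23, 2.38 and -0.32). Over all genes 5.66% were called higher in CP70, 7.93% in PEA2 and 2.86% in PEO4, where 3.37% were lower. At these shares the 0 higher in PEO4 is not read as a result about this list. The genes called in CP70 were TFAP2C, TFAP2A and KLF4, at 1 to 17 reads per library. TFAP2C (0 reads in A2780) was at least 3.89-fold higher. In PEA2 EHF, an ETS factor of epithelium, was at least 752-fold higher than in PEA1, where it had 0 reads. ESRP1, a splicing regulator of epithelial cells, was at least 501-fold higher, GRHL2, a factor that acts on junction genes, at least 69.8-fold, and OVOL2 at least 8.99-fold. In PEO4 EHF fell from 395 to 963 reads to 2 to 7 (log2FC = -6.63 ± 0.55) and OVOL2 fell (-2.21 ± 0.55). With genes that had 0 reads set at their bound, the median in the PEA pair was 2.20. EHF and OVOL2 were thus called higher in PEA2 and lower in PEO4, as KRT7 and KRT81 were, and a link was not tested.

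Of the repressors of epithelial genes (5 of 6 listed), 3 fell and 0 rose in PEA2, against 6.15% and 7.93% of all genes. ZEB1 fell from 134 to 196 reads to 0 or 1 (log2FC = -8.55 ± 0.39), ZEB2 from 19 to 21 reads to 0 or 1 (-5.02 ± 0.61) and TWIST1 from 6 to 16 reads to at most 4 (-3.26 ± 0.45). In CP70 SNAI2 (-4.88 ± 0.55) and TWIST1 (-3.10 ± 0.45) fell, and TWIST2 was at least 46.2-fold higher (0 reads in A2780). In PEO4 SNAI2 fell at low reads (3 to 15 in PEO1, 0 or 1 in PEO4, -2.12 ± 0.55). Over all genes 3.4% fell and 5.66% rose in CP70, and 3.37% fell in PEO4. A count of 1 among 5 is not read as a result about this list. The medians were -0.76, -3.26 and -1.24. The last was 0.17 with ZEB1 set at its bound, but ZEB1 had 1 or 2 reads per PEO1 library and 0 in PEO4. In the PEO pair 2 of the 5 genes were at the floor in both lines, so 0.17 is not read as a rise. Genes of the cornified envelope, the end product of stratified epithelium, were listed for 5 of 17. FLG, the filaggrin precursor that bundles keratin, rose in CP70 (2.34 ± 0.39, at 6 to 24 reads) and fell in PEA2 (-7.15 ± 0.39) and in PEO4 (-2.09 ± 0.39). SPRR2A was at least 48.6-fold higher in PEA2, and TGM1, which cross-links the envelope, rose in PEO4 (2.28 ± 0.43). The medians of the cornified list were 0.06, 0.08 and 0.01. At most 1 of its genes was called per direction and pair, where 2.86% to 7.93% of all genes were. Its counts are not read as results about the list.

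**Figure D5:**
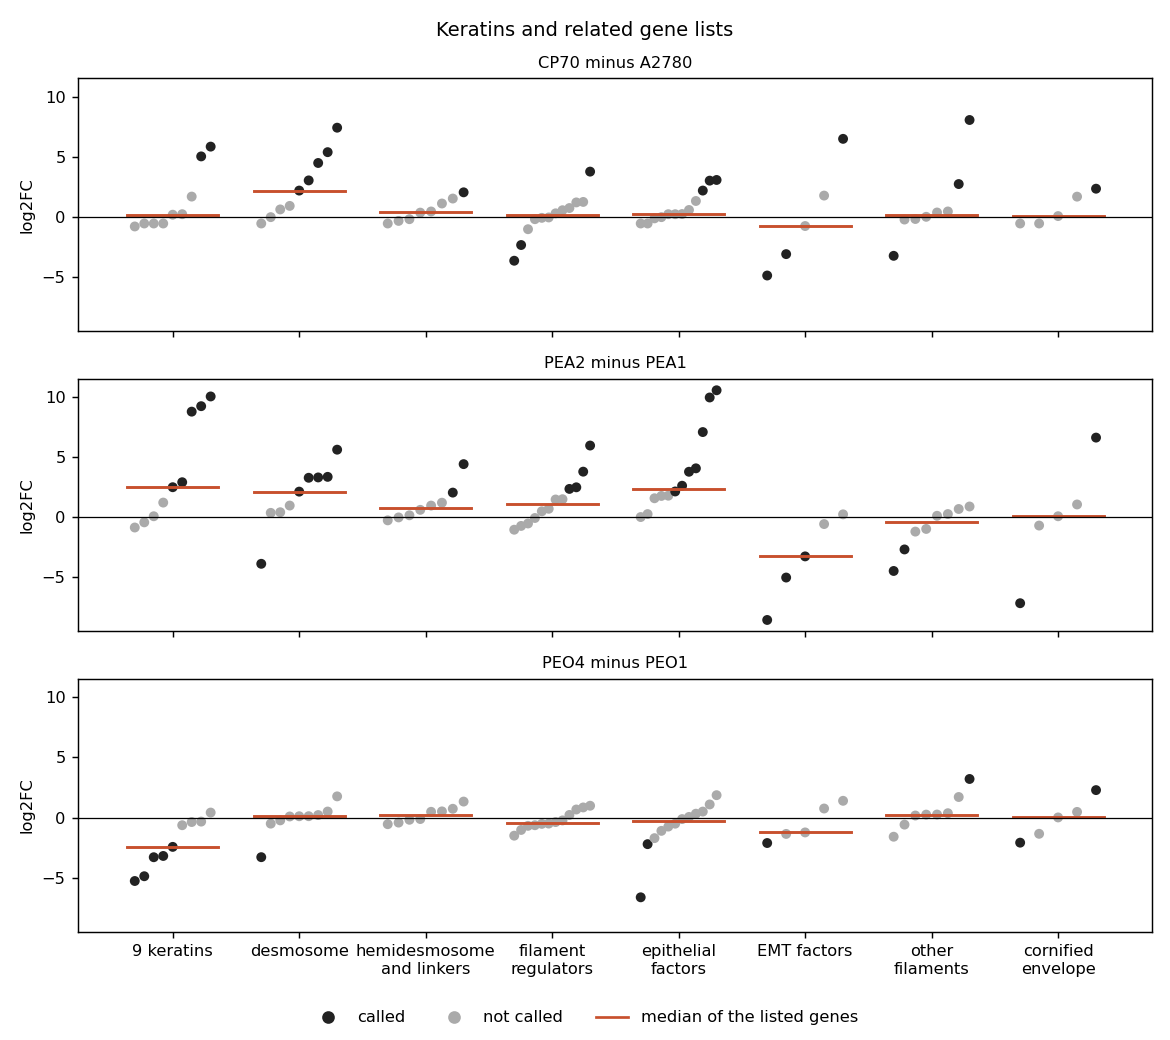
The log2FC (vertical axis) of each listed gene is plotted for the keratins and 7 related gene lists (horizontal axis) in the 3 pairs, resistant minus sensitive line, with called genes in black, others in grey and a red bar at the median of each list. In the PEA pair the keratin, desmosome and epithelial factor medians lie at 2.49, 2.13 and 2.38 and the median of the repressors at -3.26, whereas in the PEO pair the keratin median lies at -2.44 and that of the desmosome genes at 0.11.

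Some markers of the labelled tissue and of other cell types were also called in these pairs. Of the 10 serous carcinoma markers 1 was called higher in CP70 (EPCAM, 3.77 ± 0.18) and 7 in PEA2. Among the 7 were CDH1, the epithelial cadherin (9.28 ± 0.55), and CLDN3 (6.99 ± 0.54). In PEO4 2 were called higher (FOLR1, 6.39 ± 0.42, and WFDC2, 2.16 ± 0.39). FOLR1 had 0 or 1 reads per PEO1 library and 37 to 48 in PEO4 (read ratio 194, interval 34.3 to 7739). In each pair 0 were lower, and the medians were -0.46, 4.68 and 0.38. Over all genes 5.66%, 7.93% and 2.86% were called higher in CP70, PEA2 and PEO4. In the A2780 pair 6 of the 10 were at the floor in both lines. The 1 called there is not read as a result about this list. Of 7 leukocyte markers, PTPRC alone was listed, with 46 to 70 reads in the PEA2 libraries and at most 2 in any other library, at least 32.6-fold higher than in PEA1. Of 6 fibroblast markers 5 were listed. Their summed level was 509.5 to 719.9 CPM in A2780, 869 to 1009 in CP70, 366 to 447 in PEA1, 3.45 to 6.40 in PEA2, 3.26 to 7.39 in PEO1 and 77.5 to 84.1 in PEO4. Of these 3 were called higher in CP70, 1 lower in PEA2 (COL1A1, -6.67 ± 0.37) and 2 higher in PEO4. The shares over all genes were 5.66%, 6.15% and 2.86%. DCN and LUM had 0 or 1 reads in every library of the PEA and PEO pairs. Of 5 mesothelial markers 4 were listed, at 0.447 to 1.68 CPM in sum in A2780, 6.84 to 7.11 in CP70, 147 to 178 in PEA1, 279 to 339 in PEA2, 275 to 296 in PEO1 and 383 to 393 in PEO4. CALB2 was called higher in CP70 and PEA2 and MSLN in PEA2, where 5.66% (CP70) and 7.93% (PEA2) of all genes were. The part of these markers in the keratin differences was not tested.

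The genes whose log2 CPM was most like that of a keratin across the 18 libraries were looked up among 12578 other genes with a mean of at least 10 reads. As the 18 libraries are 6 lines, these are likenesses of 6 levels, given as Pearson's r and as a description. KRT18 was followed most closely by DSP (r = 0.994), then by MYO6 (0.990) and MFSD6 (0.983). For KRT19 they were ST14 (0.994), GRHL2 (0.994) and S100A14 (0.993), and for KRT7 they were FGFBP1 (0.989) and KCNK1 (0.987). For KRT8 they were HIVEP2 (0.984), EHD1 (0.983) and INADL (0.982), whose own log2FC values lay between 0.86 and 2.00 in the A2780 and PEA pairs and so were smaller than those of KRT8 itself.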

How the data were processed

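RNA from 6 lines with 3 libraries each was analysed. Libraries were made with a strand-specific kit. The authors counted reads per known gene of hg19 (featureCounts) and normalized the counts in limma. The deposited values are log2 CPM with 0.5 reads added, for 12853 genes. Bowtie2 is also named in the submitters' processing notes, but its use for RNA, and how reads with several matches were treated, are not given in the sources used here. Whole reads were recovered from 100% of values (tolerance 0.02 reads), and 0 columns of sample values were left unused. Libraries held 1344098 to 7067336 reads.

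The log2 values were fitted in limma 3.58.1 (R 4.3.3) with a mean per line over 18 libraries, moderated statistics with a variance trend, and Benjamini-Hochberg FDR over all genes. Calls needed |log2FC| above 2 and an FDR below 0.05. Folds against a line with 0 reads in all libraries were set against 3 reads over the line and are lower bounds. Other read ratios carry exact 95% binomial intervals. The fit was tested on simulated data. Spans and transcripts came from GENCODE on GRCh37 (12642 identifiers matched, 211 did not). Biopython 1.88 aligned pseudogenes to transcripts. Replicate numbers did not pair libraries (correlations of deviations within pairs from -0.18 to 0.22).

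The members and gene lists (desmosome, hemidesmosome and linkers, filament regulators, epithelial factors, repressors, other filaments, cornified envelope and cell type markers) were chosen with earlier results of these data known. Named were all members, other keratins and keratin pseudogenes called in a pair, up to 4 called genes of each list and pair, and the 3 genes most like KRT7, KRT8, KRT18 and KRT19. A few items under this rule are not reported here. KRT4, KRT6A, KRT8P10, KRT18P15 and some list genes were named after their values were seen. Alternatives were each pair fitted alone, a filter on mean log2 above 0, quantile normalization, TMM scaling, the replicate block, no variance trend, voom weights, 2 reads added, pseudogene reads added, other thresholds, and each library left out. The tests between pairs with pseudogene reads added were chosen after the data were seen.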

Additional observations from a re-analysis of the deposited data

Results flagged for a closer look

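The log2FC of 10 combinations of a keratin and 2 pairs of lines differed by the test of the difference itself, among the members above the floor in at least 1 line of both pairs. PEA minus A2780 gave -2.12 for KRT8 and -3.35 for KRT18. PEO minus A2780 gave -5.36 for KRT8 and -6.21 for KRT18. PEO minus PEA gave -11.67 for KRT7, -3.24 for KRT8, -2.86 for KRT18, -8.36 for KRT19, -4.51 for KRT80 and -14.92 for KRT81. The values of KRT7, KRT19 and KRT81 rest on PEA1 libraries with 0 to 3 reads and those that involve the A2780 pair on A2780 libraries with 0 to 3 reads, so their size depends on the 0.5 reads added. With the pseudogene reads added, the KRT8 value of PEA minus A2780 changed sign to 0.41 (FDR = 0.145). Most of those reads in A2780 lay on KRT8P12 and KRT8P33, within the spans of other genes. More than 40% of all genes passed the same tests, as the percentages beside the tests show.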

How the results depend on the processing

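The counts of called members (2, 5 and 5) were the same under every alternative at these thresholds, but those by the FDR alone reached 9 in the PEO pair with voom weights. Of 285 values of single members under the alternatives, 271 kept their direction and their side of the FDR threshold, 12 passed it only in the alternative, and 2 changed sign. Both were KRT10 in the A2780 pair, which was not called: its log2FC of 0.18 became -0.0591 with quantile normalization, and leaving out 1 library at a time gave values from -0.00193 (without the third A2780 library) to 0.48. Quantile normalization moved the median of all genes in the PEA pair from 0.01 to -0.10. KRT8 in the A2780 pair ranged from 2.52, with pseudogene reads added, to 5.41. With pseudogene reads added, an alternative chosen after seeing the data for the tests between pairs, the difference of KRT8 (PEA minus A2780) turned from -2.12 to 0.41, and the other 5 differences of KRT8 and KRT18 kept their direction and call. With the replicate block the counts were again 2, 5 and 5, and KRT18 in the PEO pair (-0.37) passed the test (FDR = 0.0451). It also passed with the pair fitted alone, quantile normalization, voom weights, 2 reads added, and without the third PEO4 library. KRT8 and KRT19 in the PEO pair passed with the pair fitted alone or with voom weights, and KRT10 with voom weights or without the first PEO1 library. The causes were not tested. Depth limits KRT7, KRT19 and KRT81 in A2780, CP70 and PEA1, where 3 reads are the smallest level shown.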
